A study of Mus musculus with 6 samples.

Results

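The Nrf2 and thioredoxin stress response was followed through 10 genes in mouse oocytes. They are the transcription factor gene Nfe2l2, its inhibitor gene Keap1, the enzyme genes Nqo1, Hmox1, Hmox2 and Srxn1, and the thioredoxin system genes Txn1, Txn2, Txnrd1 and Txnrd2. They were chosen by gene symbol from a table of 54532 genes, each symbol matched 1 row, and all 10 passed the filter on low counts that left 18868 genes. The 6 libraries were made from polyadenylated RNA of oocytes of C57BL/6J mice labelled as 6 to 7 weeks old. The 3 libraries called AMH here come from mice given recombinant mouse anti-Müllerian hormone made in E. coli, as daily intraperitoneal doses of 300 ng that began on day 21. The 3 control libraries carry the label control, and whether those mice received a vehicle injection is not stated. AMH is a hormone of granulosa cells in growing follicles. The labels do not give the number or stage of oocytes per library, do not say whether cumulus cells were removed, and do not tie libraries to animals. All p-values therefore refer to the spread among these 6 libraries alone, part of which may be technical.

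Nrf2, the product of Nfe2l2, is a transcription factor that is held by Keap1 and passed to the proteasome while a cell is unstressed. Oxidants and electrophiles modify cysteines of Keap1, Nrf2 then accumulates, and it binds antioxidant response elements together with small Maf proteins. Its targets include genes of quinone reduction, haem breakdown, glutathione synthesis and the thioredoxin system, in which NADPH-dependent reductases keep thioredoxins reduced and thioredoxins in turn reduce peroxiredoxins and other proteins. In the ovary these systems act both in the oocyte and in the somatic cells around it.

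Fitted levels of Hmox1, Hmox2, Srxn1, Txn1 and Txnrd2 were 2.40 to 2.72 times as high in AMH as in control libraries, and that of Nfe2l2 was 1.72 times as high. Keap1 and Txn2 differed less in the same direction, and Nqo1 and Txnrd1 were lower in AMH libraries. None of these differences passed edgeR's test across all genes at an adjusted p of 0.05, and controls 2 and 3 differed 12.2-fold in Srxn1, 9.65-fold in Txnrd2 and 6.83-fold in Hmox1.

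Library totals ran from 66392859 to 72109080 counts. Values per gene are CPM, counts divided by a library size that was scaled with TMM, a method that assumes most genes are unchanged, and set to a total of 1000000. The libraries differed in marker levels, and this touches every result below. The 30 oocyte-specific genes summed to 60742, 64277 and 48001 CPM over controls 1 to 3 and to 31034, 30760.2 and 46518 CPM over AMH 1 to 3. The 24 cumulus and granulosa marker genes, none of them at 0 in all libraries, summed to 598, 399.5 and 2969 CPM over controls 1 to 3 and to 2895, 2581 and 2864 CPM over AMH 1 to 3. Control 3 thus had a cumulus marker sum above that of every AMH library, while controls 1 and 2 lay far below. Much of the control 3 sum came from Inha, Gja1 and Fst, at 915, 835 and 426 CPM. The 24 genes did not all follow the sum: 9 had every AMH library above every control and 1 every AMH library below. These counts stand beside 26.9% and 23.3% of all genes, and 20 fold changes were positive and 4 negative. Fits with this sum as a covariate are given after the single genes. In such bulk samples a change in the number of cells of a type and a change in RNA per cell cannot be told apart.

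Between genes, levels can be compared only per length, so the deposited FPKM values were used for the order. In controls the highest level was that of Txnrd1, the cytosolic thioredoxin reductase, at 41.2 ± 0.756 FPKM (SD, n = 3). Next came Txn1, cytosolic thioredoxin, at 28.5 ± 11.9 FPKM, then Txn2 at 14.9 ± 0.167 and Nfe2l2 at 13.1 ± 2.81 FPKM, whose ranges over libraries overlapped. Nqo1 had 9.49 ± 1.11 FPKM and lay above Keap1 at 6.55 ± 0.556 FPKM without overlap. Genes further apart in the order overlapped too. Txn1, down to 15.2 FPKM, overlapped Nfe2l2, up to 16.0 FPKM, and Nqo1, down to 8.22 FPKM, overlapped Hmox1, up to 10.3 FPKM. Keap1, Hmox1 (5.23 ± 4.54), Hmox2 (4.54 ± 2.22), Srxn1 (2.50 ± 2.55) and Txnrd2 (1.31 ± 1.17 FPKM) followed, and each of these 5 overlapped the next in its range. Keap1 lay clear of Srxn1 and Txnrd2, and Hmox2 clear of Txnrd2. In AMH libraries Txn1 stood first at 72.6 ± 12.5 FPKM, and its range did not overlap that of Txnrd1 at 30.6 ± 7.56 FPKM. Nfe2l2 (23.0 ± 4.62) and Txn2 (17.4 ± 1.55 FPKM) followed, with Txnrd1 overlapping Nfe2l2 and Nfe2l2 overlapping Txn2. Hmox1 had 14.3 ± 0.214 FPKM, clear of both neighbours in the order. Hmox2 (11.1 ± 1.76), Keap1 (8.68 ± 1.03), Nqo1 (7.02 ± 0.978) and Srxn1 (6.68 ± 1.66 FPKM) overlapped each with the next, and Txnrd2 was last at 3.65 ± 0.874 FPKM.

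**Figure D1:**
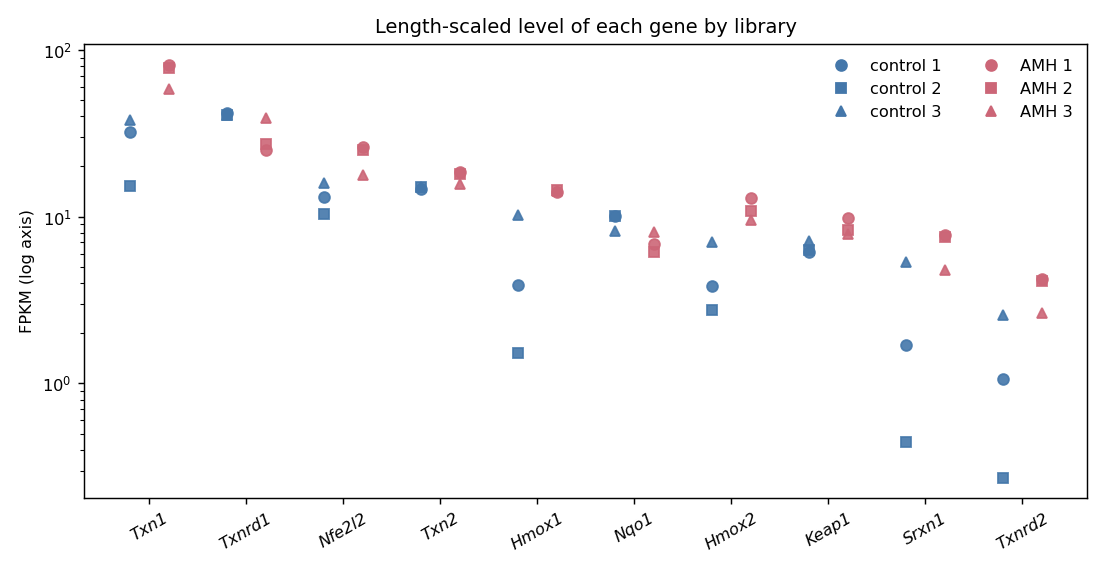
FPKM of the 10 genes on a log axis, with 1 point per library (blue control, red AMH, marker shape the library number). Txn1 and Txnrd1 have the highest means in both groups, with single points that overlap those of Nfe2l2, and control 2 has the lowest point of Hmox1, Srxn1 and Txnrd2.

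Nfe2l2 (chromosome 2, 75675513 to 75704641, minus strand, a protein-coding gene whose single annotated coding transcript has 5 exons) had higher counts in AMH libraries. Its values were 51.2, 41.0 and 64.2 CPM in controls 1, 2 and 3 against 100.7, 96.6 and 71.6 CPM in AMH 1, 2 and 3. The groups did not overlap, though AMH 3 lay close to control 3. The fitted log2 fold change was 0.78 ± 0.23 (SE), which did not pass edgeR's quasi-likelihood test (adjusted p = 0.116). Keap1, the substrate adaptor that presents Nrf2 to the Cul3 ubiquitin ligase (chromosome 9, 21229730 to 21239361), had 29.9, 30.7 and 35.7 CPM in controls and 46.7, 39.7 and 39.3 CPM in AMH libraries. Its groups did not overlap either, and the log2 fold change was 0.38 ± 0.18 (edgeR adjusted p = 0.149). A noncoding gene lies opposite to Keap1 in the annotation and shares 3317 bases with it, but had at most 32 counts in any library, against 1930 or more for Keap1.

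The balance of the factor and its inhibitor was compared inside each library, where the scaling cancels. The FPKM of Nfe2l2 was 2.11, 1.65 and 2.22 times that of Keap1 in controls 1, 2 and 3 against 2.66, 3.01 and 2.25 times that of Keap1 in AMH 1, 2 and 3. All AMH libraries lay above all controls, with AMH 3 just above control 3. The mean log2 ratio differed by 0.41, with a two-sided exact permutation p = 0.1 (adjusted 0.133 over the 4 ratios tested), the smallest p that 3 against 3 libraries can give.

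**Figure D2:**
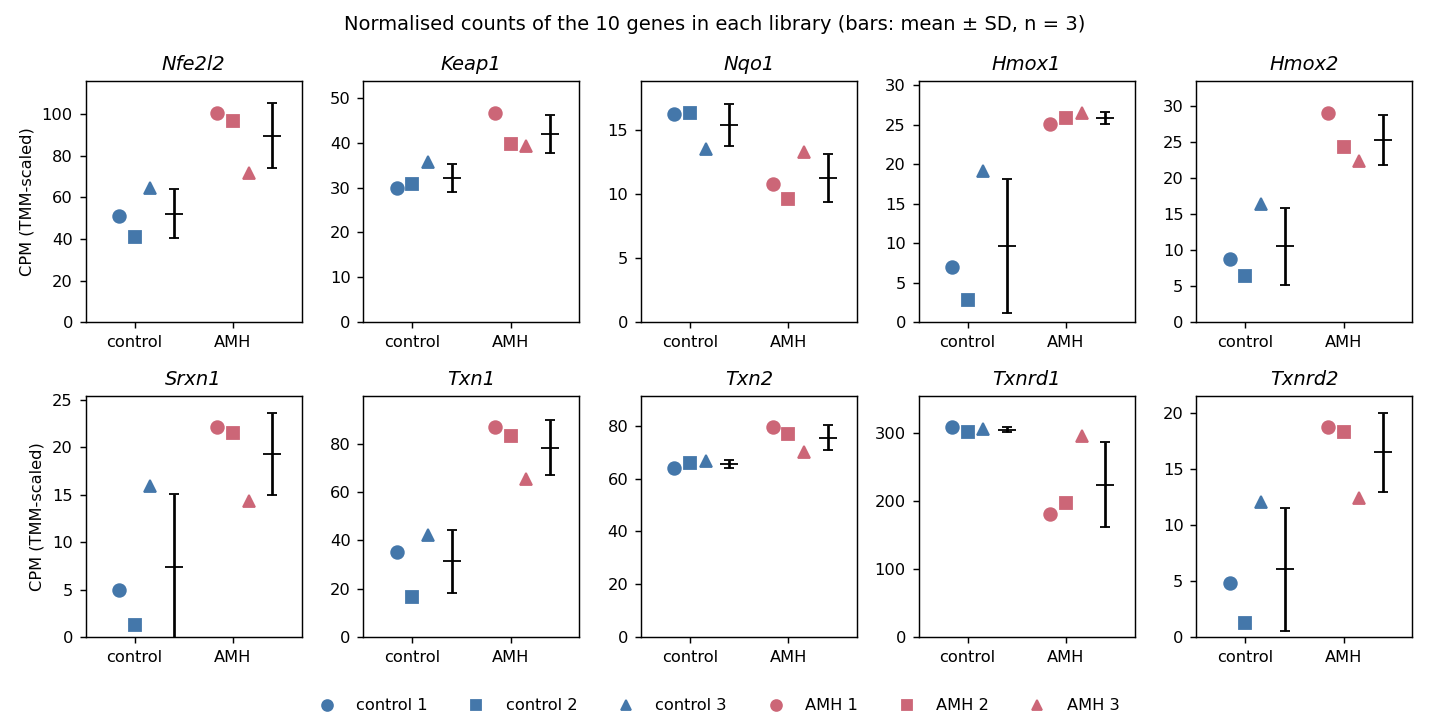
TMM-scaled CPM of each gene in each library, with mean ± SD over 3 libraries at the right of each group and every axis starting at 0 (the lower bar of Srxn1 in controls runs past 0). In all 10 genes library 3 of each group lies closer to library 3 of the other than the 2 group means lie to each other.

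Among the enzymes, the inducible haem oxygenase Hmox1, which opens the haem ring and releases iron, carbon monoxide and biliverdin (chromosome 8, 75093621 to 75100589), differed widely among controls. It had 7.00, 2.79 and 19.1 CPM in controls 1, 2 and 3 against 25.0, 25.9 and 26.5 CPM in AMH 1, 2 and 3. The AMH libraries were nearly alike and all above control 3, which had 6.83 times the CPM of control 2. The log2 fold change was 1.42 ± 0.64 (edgeR adjusted p = 0.146). Without control 3 it was 2.39 and passed (edgeR adjusted p = 0.0172), a setting in which 26.8% of the genes tested were called higher, and without control 2 it was 0.97.

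Macrophages are known for high Hmox1, so their markers were summed as well. The 12 macrophage and leukocyte markers had 50.05 to 63.5 CPM in controls and 99.6 to 141 CPM in AMH libraries, and none of the 12 was at 0 in all libraries (Adgre1, C1qa and Fcer1g were at 0 in control 2). They did not move together: 10 had a positive and 2 a negative fold change, with a median of 2.14. Mrc1 made up much of the control sum, with 33.6, 35.8 and 24.3 CPM in controls 1 to 3 and 13.8, 20.3 and 17.3 CPM in AMH 1 to 3, while Lyz2 had 5.24, 0.187 and 9.78 CPM and then 29.8, 51.4 and 48.1 CPM. The 8 erythroid markers had 12.6 to 14.4 CPM in controls and 31.3 to 362 CPM in AMH libraries, the highest in AMH 1. Most of the erythroid control sum was Epb42, at 8.72 to 11.5 CPM in controls and 5.40 to 8.48 CPM in AMH libraries, and the globin gene Hba-a1 had 0.0779 to 1.76 CPM in controls and 11.3 to 183 CPM in AMH libraries. The part of these cells in the Hmox1 values was not tested.

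Hmox2, the constitutive haem oxygenase (chromosome 16, 4726361 to 4766742), had 8.73, 6.39 and 16.5 CPM in controls and 29.1, 24.3 and 22.5 CPM in AMH libraries. Every AMH library lay above every control, and the log2 fold change was 1.26 ± 0.38 (edgeR adjusted p = 0.116). The protein-coding gene Cdip1 on the opposite strand shares 16395 bases of its span and had 5824 to 7496 counts, against 410 to 2365 for Hmox2. Whether the counting used strand is not given in the sources used here, so a share of Hmox2 counts may belong to Cdip1. The Hmox1 to Hmox2 ratio of FPKM was 1.01, 0.554 and 1.46 in controls and 1.09, 1.35 and 1.49 in AMH libraries. These ranges overlapped (difference of the mean log2 ratio 0.47, two-sided exact permutation p = 0.4, adjusted 0.4 over the 4 ratios).

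Srxn1, sulfiredoxin, reactivates peroxiredoxins whose active cysteine has been overoxidised (chromosome 2, 152105516 to 152111376). Its values were 4.95, 1.31 and 16.0 CPM in the controls against 22.1, 21.5 and 14.3 CPM in AMH 1, 2 and 3. AMH 3 lay below control 3, so the groups overlapped, and control 3 had 12.2 times the CPM of control 2. The low value of control 2 rests on 84 counts. The log2 fold change was 1.38 ± 0.80 (edgeR adjusted p = 0.219), without control 3 it was 2.62 (edgeR adjusted p = 0.0230), and without control 2 it was 0.87.

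Nqo1, a quinone reductase long used as a readout of Nrf2 activity (chromosome 8, 107388225 to 107403206), ran the other way. It had 16.3, 16.4 and 13.5 CPM in controls and 10.8, 9.67 and 13.3 CPM in AMH libraries. Every AMH library lay below every control, by a narrow margin between control 3 and AMH 3. The log2 fold change was -0.45 ± 0.23 (edgeR adjusted p = 0.180).

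The promoters of the genes were searched for the core of the antioxidant response element, because the enzymes with this shared regulator had fold changes of both signs. The core was spelled TGACNNNGC, with N for any base, and was searched on both strands from 250 bases before to 50 bases after each RefSeq transcript start (GRCm38.p6). Its first bases can coincide with an AP-1 site, TGACTCA, which none of the matches below contains. Windows were found for 9 of the 10 genes, 13 in all, and not for Hmox1. The core was present in 3 of the 13 windows (23.1%), against 12.4% of 32851 windows of the same length. The stretches that hold these 3 matches are shown 5′ to 3′ on the strand of the gene, with the core in capitals. A match is a description of the letters, not of binding.
Nfe2l2, chr2:75704664-75704913, minus strand, the 250 bases before the start: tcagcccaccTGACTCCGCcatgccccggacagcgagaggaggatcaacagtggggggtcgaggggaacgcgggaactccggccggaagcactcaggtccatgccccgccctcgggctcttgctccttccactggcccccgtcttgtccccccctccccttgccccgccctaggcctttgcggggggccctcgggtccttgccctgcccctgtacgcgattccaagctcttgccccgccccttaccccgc
Txnrd1, chr10:82858956-82859205, plus strand, the 250 bases before 1 of 3 annotated starts: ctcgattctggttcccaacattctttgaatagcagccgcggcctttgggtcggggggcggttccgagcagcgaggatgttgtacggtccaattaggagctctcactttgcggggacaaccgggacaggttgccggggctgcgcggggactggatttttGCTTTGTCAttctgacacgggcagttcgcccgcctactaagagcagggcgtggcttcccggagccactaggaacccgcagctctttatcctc
Srxn1, chr2:152105542-152105571, plus strand, 30 bases after the start: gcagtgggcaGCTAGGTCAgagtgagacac
In Nfe2l2 the core reads TGACTCCGC and begins 240 bases before the start. In Txnrd1 and Srxn1 it lies on the opposite strand, so that the capitals show its reverse complement. They begin 92 bases before the start in Txnrd1 and at base 29 of the transcript in Srxn1. The 30 bases shown for Srxn1 do not adjoin its start: they begin at 152105542, and the transcript starts at 152105524. Txnrd1 and Srxn1, which both hold a core here, had log2 fold changes of -0.44 and 1.38. The remaining windows, those of Nqo1 and Txn1 among them, lack these letters, which says nothing on elements elsewhere.

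In the thioredoxin system Txn1 had the clearest distance between the groups and Txn2 a small one. Txn1, cytosolic thioredoxin (chromosome 4, 57943373 to 57956411, exonic length 1051 bases), had 35.1, 16.6 and 42.2 CPM in controls 1, 2 and 3 against 86.8, 83.2 and 65.3 CPM in AMH 1, 2 and 3. The groups did not overlap, and the lowest AMH library was AMH 3. The nearest values were 42.2 CPM in control 3 and 65.3 CPM in AMH 3, while controls alone ran from 16.6 to 42.2 CPM. The log2 fold change was 1.32 ± 0.35 (edgeR adjusted p = 0.116), that is 2.50-fold. Txn2, the mitochondrial thioredoxin (chromosome 15, 77915047 to 77929006), had 64.0, 65.7 and 66.8 CPM in controls and 79.4, 76.7 and 70.2 CPM in AMH libraries. Every AMH library lay above every control at a far smaller distance, and the log2 fold change was 0.20 ± 0.14 (edgeR adjusted p = 0.289).

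Within libraries the ratio of Txn2 to Txn1 FPKM was 0.455, 0.986 and 0.395 in controls 1, 2 and 3 against 0.229, 0.230 and 0.269 in AMH 1, 2 and 3. Every AMH library lay below every control, and the 3 AMH values were close together. The mean log2 ratio differed by -1.22 (two-sided exact permutation p = 0.1, adjusted 0.133 over the 4 ratios).

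Txnrd1 (chromosome 10, 82833951 to 82897712), a selenoenzyme that reduces Txn1, was flat among controls, at 308, 302 and 305 CPM. Its AMH values were 180.3, 197 and 296 CPM, so AMH 1 and 2 lay far below the controls and AMH 3 just below them. The log2 fold change was -0.44 ± 0.22 (edgeR adjusted p = 0.163). Without AMH 3 it was -0.72 and passed (edgeR adjusted p = 0.0400), a setting in which 8.18% of genes were called, 6.73% lower and 1.45% higher. Txnrd2, the mitochondrial reductase (chromosome 16, 18426384 to 18479073), had 4.85, 1.25 and 12.0 CPM in controls and 18.7, 18.3 and 12.4 CPM in AMH libraries. Its groups were separated only by the step from control 3 to AMH 3, and the lowest library, control 2, had 80 counts. The log2 fold change was 1.44 ± 0.73 (edgeR adjusted p = 0.175), without control 3 it was 2.42 (edgeR adjusted p = 0.0273), and without control 2 it was 0.95.

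For the reductases the ratio of Txnrd2 to Txnrd1 FPKM was 0.0256, 0.00690 and 0.0636 in controls 1, 2 and 3 against 0.167, 0.150 and 0.0675 in AMH 1, 2 and 3. All AMH libraries lay above all controls, AMH 3 barely so. The mean log2 ratio differed by 2.41 (two-sided exact permutation p = 0.1, adjusted 0.133 over the 4 ratios). The mean mitochondrial to cytosolic log2 ratio was thus lower in AMH libraries for thioredoxin and higher for its reductase, and neither difference could reach a p below 0.1.

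**Figure D3:**
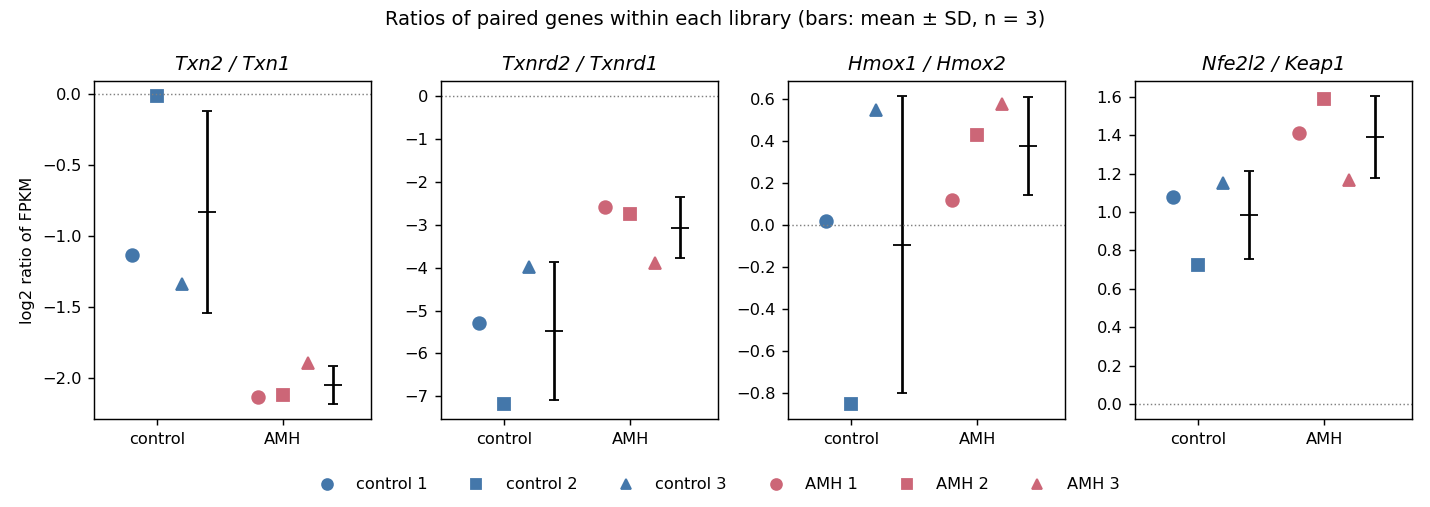
Log2 ratio of the FPKM of 2 genes within each library, with mean ± SD over 3 libraries per group and a separate vertical axis for each pair. Groups are separate for Txn2 to Txn1, Txnrd2 to Txnrd1 and Nfe2l2 to Keap1 and overlap for Hmox1 to Hmox2.

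Taken over the 10 genes, 7 had every AMH library above every control, as did 26.9% of all genes tested, and 2 (Nqo1 and Txnrd1) lay below the controls in the same way, beside 23.3%. Srxn1 overlapped. Fold changes were positive for 8 and negative for 2, with a median log2 fold change of 1.02 against -0.01 over all 18868 genes. EdgeR's quasi-likelihood test called 0 of the 10 genes and 0 of all genes (0%), and the lowest adjusted p was 0.116. Before adjustment, 0.05 was passed by 3 of the 10 higher (Nfe2l2, Hmox2 and Txn1) and 0 lower, beside 20.2% and 17.3% of all genes. DESeq2 called the same 3 genes higher and 0 lower, where it called 18.0% and 8.64% of the genes to which it gave an adjusted p. Limma-voom called 0, and with sample quality weights it called all 10, among 74.9% of all genes (8 of the 10 higher and 2 lower, beside 39.1% and 35.8%).

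The calls of edgeR depended on library 3 of each group. Control 3 was the highest control for 8 of the 10 genes, as for 44.0% of all genes, and AMH 3 the lowest AMH library for 7, as for 42.6%. Controls ran in the order 2, 1, 3 for 6 of the 10 (Nfe2l2, Hmox1, Hmox2, Srxn1, Txn1 and Txnrd2), as for 34.9% of all genes. The summed markers of cumulus cells, of oviduct epithelium (75.5, 26.3 and 176 CPM in controls 1 to 3) and of theca and stroma (35.9, 13.0 and 96.0 CPM) had this order too. So did, over a narrower range, those of macrophages and leukocytes (56.9, 50.05 and 63.5 CPM) and of erythroid cells (13.2, 12.6 and 14.4 CPM). The oocyte-specific and endothelial sums ran in the reverse order. Over AMH 1 to 3 the oviduct markers summed to 763, 429.7 and 151.7 CPM, with 12 of 12 at a positive fold change and a median of 3.88, and the theca and stroma markers to 128, 160.2 and 54.3 CPM. The part of oviduct, theca, stroma, macrophage and erythroid cells in the results was not tested. Without control 3 edgeR called 6 of the 10 genes (Nfe2l2, Hmox1, Hmox2, Srxn1, Txn1 and Txnrd2), all higher. In that fit 38.0% of all genes were called, 26.8% higher and 11.2% lower. Without AMH 3 it called Txnrd1, lower, beside 6.73% of all genes called lower. Without both it called 9, all but Txn2 (7 higher and 2 lower), where 51.0% of all genes were called (29.4% higher and 21.6% lower). Set side by side alone, AMH 3 exceeded control 3 by 0.63 on the log2 scale for Txn1, 0.48 for Hmox1 and 0.45 for Hmox2, and the other 7 genes lay between -0.16 and 0.16. A pair of single libraries carries no test.

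With summed cumulus marker CPM as a covariate, fold changes were smaller for 9 of the 10 genes. This sum was 598 and 399.5 CPM in controls 1 and 2 and at least 2581 CPM in control 3 and the AMH libraries. The adjusted group difference therefore rests largely on control 3 against the AMH libraries. Such a fit cannot tell cumulus content from other differences between control 3 and the other controls. The log2 value was 0.26 ± 0.53 for Srxn1, 0.41 ± 0.56 for Txnrd2 and 0.43 ± 0.36 for Hmox1. It was 0.64 ± 0.28 for Hmox2, 0.83 ± 0.38 for Txn1 and 0.48 ± 0.27 for Nfe2l2, while Txnrd1 had -0.46 ± 0.31 (edgeR, lowest adjusted p 0.542). The directions also depend on the scaling. The median over all genes moved to -0.23 under upper-quartile scaling, to 0.26 under library size alone and to 0.69 under scaling to the oocyte-specific genes. With the last, Nqo1 was at 0.24 and Txnrd1 at 0.20, positive but below that median, and Txn2 was at -0.020 with upper-quartile scaling, above that median of -0.23. The other 7 genes were positive under each of these scalings.

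**Figure D4:**
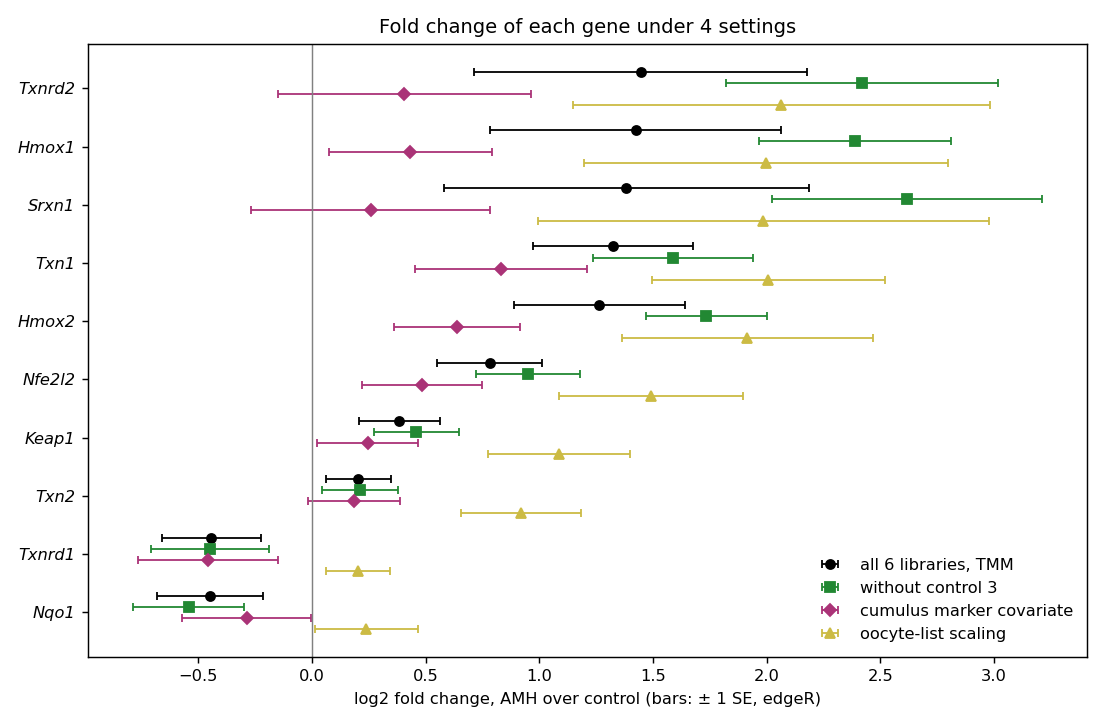
Log2 fold change of AMH over control for each gene (± 1 SE, edgeR) in all 6 libraries, without control 3, with the cumulus marker covariate and with scaling to oocyte-specific genes. Srxn1, Hmox1 and Txnrd2 move the most between settings, and Nqo1 and Txnrd1 pass 0 with the oocyte scaling.

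Other known Nrf2 targets were read from a list of 25 genes, all of which were tested. Of these 20 had a positive and 5 a negative fold change, with a median of 1.00, and edgeR called 0. The median was 0.67 without control 2, 0.75 without AMH 1 and 1.43 without control 3. With oocyte scaling it was 1.64, where the median of all genes was 0.69. Groups were separate for 14 in the higher and 3 in the lower direction, beside 26.9% and 23.3% of all genes. The 4 of highest level were the ferritin chains Ftl1 and Fth1, the isocitrate dehydrogenase Idh1 and the peroxiredoxin Prdx1. Ftl1, the light chain of the iron store, had 303, 99.9 and 333 CPM in controls and 1118, 997 and 584 CPM in AMH libraries. Fth1, the heavy chain, had 141, 51.5 and 206 CPM against 533, 519 and 337 CPM. Both chains have processed pseudogenes, so their counts are uncertain. Idh1, which makes cytosolic NADPH, had 515, 150.5 and 762 CPM against 1497, 1479 and 780.4 CPM, with AMH 3 only just above control 3. Prdx1, a peroxidase reduced by thioredoxin, had 846, 766 and 687 CPM against 735, 742 and 825 CPM, with overlapping groups and a log2 fold change of 0.00 ± 0.16. Of the genes of glutathione synthesis, named after their values were seen, the catalytic subunit gene Gclc had a log2 fold change of 0.21 ± 0.20, the modifier subunit gene Gclm -0.41 ± 0.18 and the cystine transporter gene Slc7a11 -0.81 ± 0.22 (edgeR adjusted p of 0.418, 0.136 and 0.116).

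Regulators of Nrf2 had no common direction. Of 16 genes 6 were positive and 10 negative, with a median of -0.08 (0.19 with library size only and 0.61 with oocyte scaling), and edgeR called 0. Groups were separate for 3 in the higher and 4 in the lower direction, shares near or under the 26.9% and 23.3% of all genes. The median was -0.32 without AMH 3, -0.16 without control 3 and -0.03 without AMH 1. Sqstm1, an autophagy receptor that binds Keap1, had 186, 60.5 and 429 CPM in controls and 680.4, 619 and 446 CPM in AMH libraries. Nfe2l1, a related factor, had 340.4, 360 and 440.5 CPM against 287, 309 and 352 CPM, with overlapping groups. Rbx1, the RING subunit of cullin ligases, had 137, 134 and 106 CPM against 119.7, 113 and 131 CPM. Syvn1, a ubiquitin ligase of the endoplasmic reticulum, had 128, 131 and 137 CPM against 105, 113 and 152 CPM, and both of these overlapped between groups.

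Partners and relatives of thioredoxin numbered 27, with 17 positive, 10 negative and a median of 0.13 (-0.086 with upper-quartile scaling), and edgeR called 0. Groups were separate for 13 in the higher and 6 in the lower direction, the latter a share close to the 23.3% of all genes and the former set against 26.9%. The median was 0.07 without control 1, 0.32 without control 2, 0.29 without control 3 and 0.21 without AMH 3. Txnip, which binds and inhibits thioredoxin, had 1099, 1285 and 1014 CPM in controls and 549, 634 and 954 CPM in AMH libraries. Its groups were separate, and its log2 fold change of -0.67 ± 0.25 had the opposite sign to that of Txn1 (edgeR adjusted p = 0.119). Txndc5, a disulfide isomerase of the endoplasmic reticulum, had 909, 967 and 944 CPM against 620.0, 571 and 917 CPM, and its groups overlapped only through AMH 3 and control 1. Prdx2, another thioredoxin-dependent peroxidase, had 305, 279 and 310.2 CPM against 382, 394 and 357 CPM.

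The haem and iron list of 8 genes had 6 positive and 2 negative members, a median of 1.44 and 0 calls by edgeR. Groups were separate for 4, all higher, beside 26.9% of all genes (0 lower, beside 23.3%). It shares the ferritin chains and Blvrb with the target list. Por, the reductase that supplies electrons to haem oxygenases, had 184, 204 and 211 CPM in controls and 191, 155 and 227 CPM in AMH libraries, and Blvra, a biliverdin reductase, had 89.0, 103 and 83.7 CPM against 54.3, 58.8 and 102 CPM. Both overlapped between groups.

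**Figure D5:**
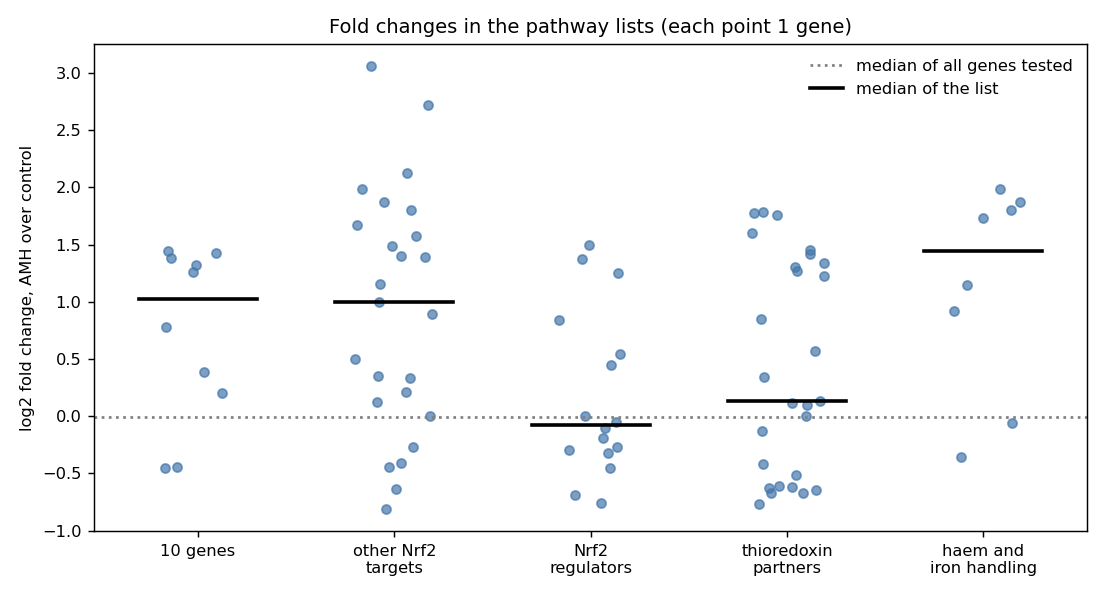
Log2 fold change of AMH over control for each gene of the 10 and of the 4 pathway lists (points, with random horizontal spread), with the median of each list (black line) and of all genes tested (dotted line, -0.01). The medians are 1.02, 1.00, -0.08, 0.13 and 1.44 from left to right, and every list holds genes of both signs.

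The genes closest in pattern were found among 10152 protein-coding genes whose mean over the 6 libraries was at least 5 CPM, by the root mean square difference of centred log2 CPM over the 6 libraries. For Nfe2l2 they were Ercc4 (0.03), Bzw2 (0.05) and Bcor (0.05). Ercc4, for one, had 7.00, 5.61 and 8.90 CPM in controls and 13.7, 13.5 and 10.3 CPM in AMH libraries. For Hmox1 they were Chka (0.09), Rab24 (0.10) and Ifngr1 (0.11), and for Txn1 they were Gcdh (0.05), Gpn3 (0.07) and the peroxiredoxin gene Prdx6 (0.07). Prdx6 had 34.9, 16.6 and 40.5 CPM in controls and 90.3, 77.4 and 57.9 CPM in AMH libraries. These distances describe 6 libraries in which all genes share depth and cell content.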

How the data were processed

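RNA of mouse oocytes was sequenced in 3 control and 3 AMH libraries, grouped by their titles. For each Ensembl gene the authors deposited a whole-number count and an FPKM value. Per the file columns, each deposited FPKM value equals count over gene length and 1 effective size per library, within 1.12e-06 percent. The submitters' processing notes list DESeq2 1.20.0, featureCounts 1.5.0-p3 and HISAT2 2.0.5, with mm10 and GRCm38 as builds. How each was set, strand use included, is not given in the sources used here. Coordinates are the file's and match GENCODE M21 for all 10 genes, and 1 overlap between genes is not reported here. No 2 libraries agreed within sampling noise. The lowest chi-square per degree of freedom, 55.9, was that of control 3 with AMH 3, a pair from different groups. It was 66.0 for controls 1 and 2 and 69.2 for AMH 1 and 2. Control 3 had 190.9 and 350.0 with controls 1 and 2, and AMH 3 had 274.5 and 238.9 with AMH 1 and 2.

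EdgeR 4.0.16 (R 4.3.3; TMM, default filterByExpr, robust quasi-likelihood fit, group alone) was the main test, with Benjamini-Hochberg adjustment at 0.05 over 18868 genes. Standard errors come from the F statistic. Ratios used FPKM + 0.01. Alternatives were DESeq2 1.42.0, limma 3.58.1 (voom, and log2 FPKM), other scalings and filters, a replicate block, a marker covariate and leaving out libraries. The tests were run on simulated counts first. The 10 genes and the lists were chosen with earlier results of these data known. Named were the 10 genes, the 4 genes of highest mean FPKM per list and the 3 closest in pattern to Nfe2l2, Hmox1 and Txn1, and Gclc, Gclm, Slc7a11 and single markers were added after their values were seen. Endothelial markers summed to 184 to 223 CPM in control and 106 to 179 CPM in AMH libraries, and Emcn, 1 of them, was the only marker of any list at 0 in all libraries.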

Additional observations from a re-analysis of the deposited data

How the results depend on the processing

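EdgeR called 0 genes and 0 of the 10 with all libraries. DESeq2 called 4535 genes and 3 of the 10, limma-voom with sample quality weights 14130 and 10, and edgeR without control 3 and AMH 3 called 9885 and 9. Leaving out 1 library gave 0 to 7513 genes and 0 to 6 of the 10, with 7513 and 6 without control 3, 1607 and 1 without AMH 3, and 0 without any other. In the other 17 of 22 alternatives none of the 10 passed, with a lowest adjusted p of 0.0581. Directions reversed for Nqo1 (0.24) and Txnrd1 (0.20) with oocyte-list scaling and for Txn2 (-0.020) with upper-quartile scaling. List medians reversed for Nrf2 regulators with library size only (0.19) and oocyte-list scaling (0.61) and for thioredoxin partners with upper-quartile scaling (-0.086), as the median of all genes moved to 0.26, 0.69 and -0.23, so relative to it these lists moved little. The 4 ratios kept their sign under every pseudocount and left-out library tried, but not their size: the difference ran from 1.56 (without control 2) to 3.17 (without control 3) for Txnrd2 to Txnrd1, from 0.09 to 0.79 for Hmox1 to Hmox2 and from -0.81 to -1.47 for Txn2 to Txn1, with the same libraries left out, and from 0.27 (without control 2) to 0.52 (without AMH 3) for Nfe2l2 to Keap1. Whether replicate numbers pair the libraries is not stated. Same-numbered deviations from the group means correlated at 0.06, -0.10 and -0.25, and no library correlated best with its own number. These deviations come from 3 libraries per group and cancel out within it, so the correlations cannot decide whether the libraries are paired. With the replicate block edgeR called 0 genes and 0 of the 10.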
